A study of Arabidopsis thaliana with 4 samples.

Results

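Heat shock factors are transcription factors that bind heat shock elements in the promoters of chaperone and other stress genes. The members described here are the 4 HSFA1 genes of Arabidopsis thaliana, HSFA1A (AT4G17750), HSFA1B (AT5G16820), HSFA1D (AT1G32330) and HSFA1E (AT3G02990), together with 4 further class A genes known for being transcribed without heat, HSFA4A (AT4G18880), HSFA4C (AT5G45710), HSFA5 (AT4G13980) and HSFA8 (AT1G67970). They were taken by locus name from the array annotation. Their values did not enter that rule, but earlier results of these data were known when the genes were chosen. Each of the 8 loci had 1 probe, out of 25665 loci with a probe, and all 8 were among the 19314 genes tested. Their loci lie on chromosomes 1, 3, 4 and 5, and 3 of them (HSFA5, HSFA1A and HSFA4A) are on chromosome 4, which also carries both mutated genes.

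HSFA1 proteins are the master activators of the plant heat response. Without heat they are held inactive by cytosolic HSP70 and HSP90 chaperones, and on heating they are released, form trimers and induce chaperone genes and further heat shock factors, HSFB1 and HSFB2B included. The class B factors bind the same elements, have no activation domain of the class A kind, and repress heat-induced genes, class A factor genes among them. Since HSFA1 control acts largely on the protein, the arrays measured the supply of HSFA1 transcript and not HSFA1 activity.

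RNA came from hsfb1 hsfb2b double mutant seedlings and from wild-type seedlings, both of the Columbia-0 ecotype and 5 d old, which had been grown at 23 °C and held at 32 °C for 30 min in submerged plates. On each of 4 two-colour arrays, 1 per biological replicate, mutant RNA was hybridised with wild-type RNA of the same plate, with the mutant in Cy3 on replicates 1 and 3 and in Cy5 on replicates 2 and 4. Many plants were pooled per plate, and the labels name no mutant alleles. Both groups were heated, so the ratios below set the genotypes against each other in heat, and whether the 8 genes are constitutive could not be checked. Between 58.7% and 60.9% of spots were well above background per channel, and the 4 arrays limit the precision of each ratio. The mutated genes checked the labels, with fitted log2 ratios (mutant over wild type) of -5.79 ± 0.03 for HSFB1 and -4.68 ± 0.07 for HSFB2B (SE, n = 4 arrays).

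The transcripts of the 8 class A factors were close to equal in double mutant and wild-type seedlings. In limma, 1 of the 8 passed an adjusted p of 0.05 (Benjamini-Hochberg, two-sided, over all genes), HSFA8, which was higher in the mutant, and 7 did not pass. Over all genes 29.8% passed, 16.6% as higher and 13.1% as lower in the mutant, so 1 of 8 is no larger share than the background. The median log2 ratio of the 8 was 0.03, against 0.0006 over all genes tested, and the median size was 0.04, against 0.07 over all genes. Only HSFA8 differed by at least 0.1 on the log2 scale, a size that 36.9% of all genes reached. In bulk seedlings, fewer cells of a type and less RNA per cell cannot be told apart.

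**Figure D1:**
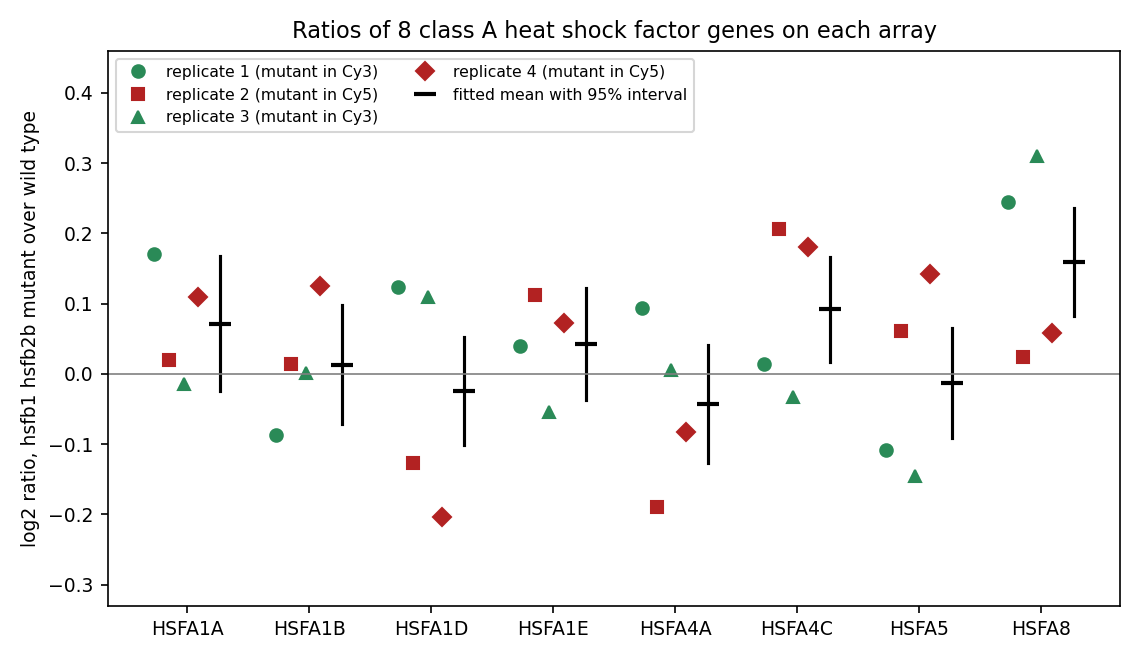
Log2 ratio of mutant over wild type (vertical axis) for each of the 8 genes, with 1 point per array coloured by the dye of the mutant and, in black, the fitted mean with its 95% interval from limma. The HSFA8 interval, from 0.08 to 0.24, lies above 0, and so does that of HSFA4C, from 0.02 to 0.17, whose adjusted p was 0.068, while the other 6 intervals include 0.

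None of the 4 HSFA1 genes passed the test. In limma 0 of 4 had an adjusted p below 0.05, 0 of 4 had an unadjusted p below it, and 0 of 4 passed under each of the 16 processing alternatives. Over all genes 29.8% passed in the main fit and 9.45% to 39.9% under the alternatives. The share with an unadjusted p below 0.05 was not computed. With only 4 genes, a count of 0 is not set apart from these shares. HSFA1A, which acts with HSFA1B in the early phase of heat induction, had normalized signals of 353, 359, 357 and 392 units in mutant channels of replicates 1 to 4, against 313, 354, 360 and 363 units in wild-type channels. The log2 ratios of mutant over wild type on these arrays were 0.17, 0.02, -0.014 and 0.11. The mutant was higher on 3 arrays and the signals of the genotypes overlapped. The fitted log2 ratio was 0.07 ± 0.04 (SE, n = 4 arrays, limma adjusted p = 0.23), which is 1.05-fold with a 95% interval of 0.983 to 1.12. Without replicate 1 the ratio was 0.03, and without replicate 3 it was 0.12.

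HSFA1B, the partner of HSFA1A in the early response, was even closer to equality. Its signals were 469, 491, 475 and 525 units in mutant channels, against 498, 486, 475 and 482 units in wild-type channels. Replicate 1 was lower in the mutant with a log2 ratio of -0.09, replicates 2 and 3 were near 0 (0.01 and 0.0007), and replicate 4 was higher with 0.12. The genotypes overlapped, and the fitted log2 ratio of 0.01 ± 0.04 (limma adjusted p = 0.81) had a fold interval of 0.952 to 1.07.

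HSFA1D and HSFA1E are known as activators of HSFA2, the heat-induced factor that prolongs the chaperone response. HSFA1D had signals of 1180, 1050, 1120 and 954 units in mutant channels, against 1080, 1150, 1040 and 1100 units in wild-type channels. Its log2 ratio was above 0 on both arrays with the mutant in Cy3 (0.12 and 0.11 for replicates 1 and 3) and below 0 on both with the mutant in Cy5 (-0.13 and -0.20 for replicates 2 and 4). The sign thus followed the dye, and the fitted dye effect (red over green, -0.14 on the log2 scale) passed the threshold with a limma adjusted p of 0.029. With the dye effect fitted, the log2 ratio of mutant over wild type was -0.02 ± 0.03 (limma adjusted p = 0.61), a fold interval of 0.932 to 1.04.

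HSFA1E gave mutant signals of 250, 259, 233 and 256 units, against 243, 239, 242 and 243 units in wild-type channels. Replicate 3 was lower in the mutant, with a log2 ratio of -0.05, and the other replicates were higher, with 0.04, 0.11 and 0.07. The fitted log2 ratio was 0.04 ± 0.03 (limma adjusted p = 0.38), a fold interval of 0.975 to 1.09. The value moved with the signals used. HSFA1E spots read 114 to 209 units before correction, over local backgrounds of 44 to 52 units. The ratio was 0.08 with no background correction, 0.20 in the scanner software's processed signals and 0.28 in the deposited series values as given. None of them passed the threshold (limma adjusted p = 0.15, 0.20 and 0.096). The series values carry a constant, and with each array centred they gave 0.20 (limma adjusted p = 0.21).

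**Figure D2:**
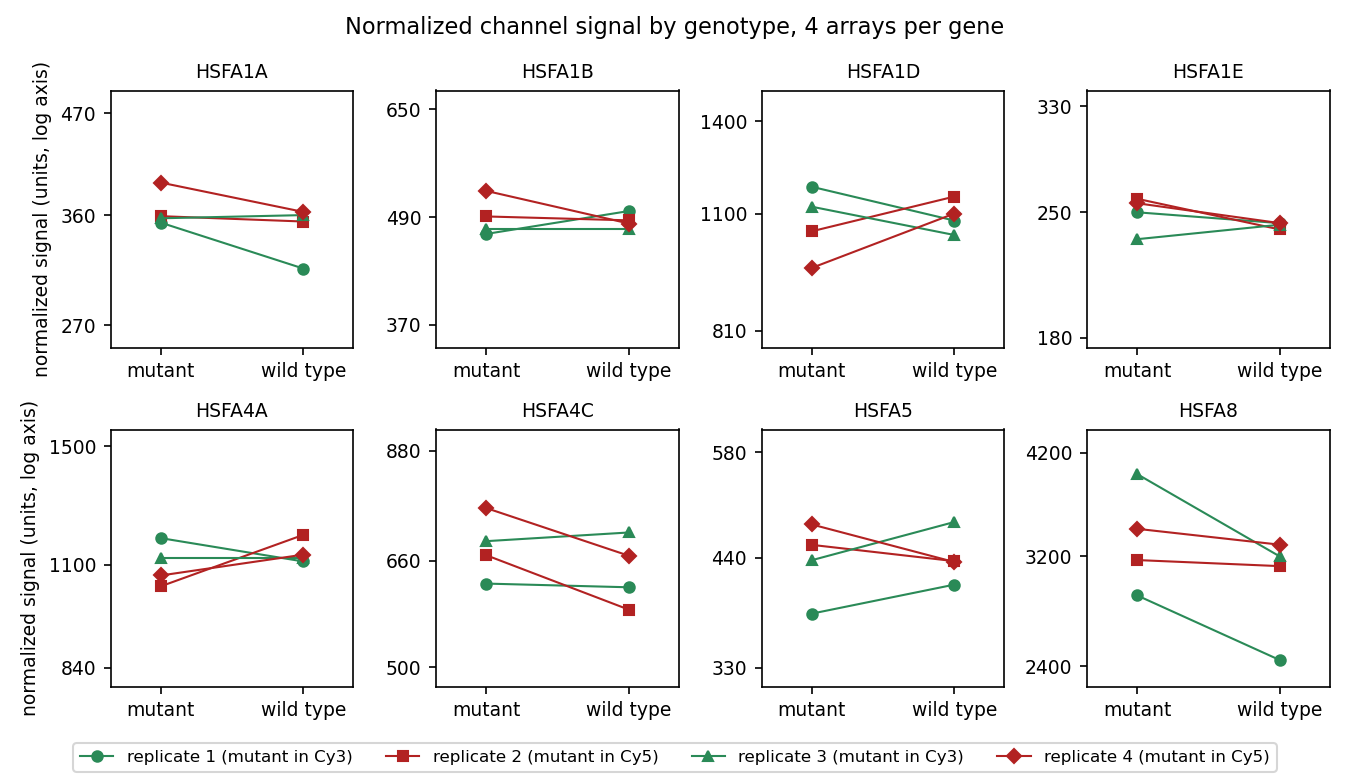
Normalized channel signal (vertical axis, arbitrary units on a log axis that spans the same fold range in every panel) in mutant channels, left, and wild-type channels, right, with a line joining the channels of 1 array. Compared across arrays, without the pairing, the signals of the genotypes overlapped for all 8 genes. They include HSFA8, which passed the test, so such overlap is no measure of equality. The share of all genes with such overlap was not computed. Only for HSFA8 did every line run higher on the mutant side. Heights are not comparable between panels, since each gene has its own probe.

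HSFA4A, a factor linked to oxidative and salt stress that the mitogen-activated kinases MPK3 and MPK6 phosphorylate, had a fitted log2 ratio of -0.04 ± 0.04 (SE, n = 4 arrays, limma adjusted p = 0.40). Single arrays gave 0.09, -0.19, 0.0052 and -0.08 for replicates 1 to 4. As for HSFA1D, both arrays with the mutant in Cy3 were above 0 and both with the mutant in Cy5 below. Signals spanned 1040 to 1180 units in mutant channels and 1110 to 1190 units in wild-type channels, and the fold interval was 0.915 to 1.03.

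HSFA4C, also known as RHA1 for a role in root growth direction, came nearest to the threshold after HSFA8. Its mutant signals were 622, 670, 695 and 758 units, against 616, 581, 711 and 669 units in wild-type channels. The log2 ratios were 0.01 and -0.03 with the mutant in Cy3 (replicates 1 and 3) and 0.21 and 0.18 with the mutant in Cy5 (replicates 2 and 4). The fitted value of 0.09 ± 0.03 had an unadjusted p of 0.023 and an adjusted p of 0.068 in limma, so it did not pass. It passed at 0.19 in the series values as given and at 0.09 in a separate-channel fit, 2 of the 16 alternatives. The series values carry a constant. With each array centred they gave 0.11 and did not pass (limma adjusted p = 0.20).

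HSFA5 is known to pair with HSFA4 proteins and to curb their activity. Its log2 ratio was below 0 on both arrays with the mutant in Cy3 (-0.11 and -0.15) and above 0 on both with the mutant in Cy5 (0.06 and 0.14). The fitted log2 ratio was -0.01 ± 0.03 (limma adjusted p = 0.80), a fold interval of 0.939 to 1.05. Signals ran from 380 to 480 units in mutant channels and from 410 to 483 units in wild-type channels, so the genotypes overlapped here too.

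HSFA8, a factor whose entry into the nucleus has been linked to oxidation, was the member that rose. Its signals were 2890, 3170, 3970 and 3440 units in mutant channels, against 2440, 3120, 3200 and 3300 units in wild-type channels. The mutant was higher on all 4 arrays, with log2 ratios of 0.24, 0.02, 0.31 and 0.06, although the arrays differed enough for the signals of the genotypes to overlap across arrays. The fitted log2 ratio was 0.16 ± 0.03 (SE, n = 4 arrays, limma adjusted p = 0.011), which is 1.12-fold with a 95% interval of 1.06 to 1.18. Of all genes with 4 ratios, 35.3% had the same sign on every array, and the size of the HSFA8 ratio was above that of 80.3% of genes tested.

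The HSFA8 difference was uneven between dye orientations, with a mean log2 ratio of 0.28 over replicates 1 and 3 (Cy3 for the mutant) and of 0.04 over replicates 2 and 4 (Cy5), and its dye effect of -0.12 passed the threshold (limma adjusted p = 0.046). The call was lost under 5 of the 16 alternatives and its adjusted p ran from 0.0046 to 0.58. The lowest value, 0.09, came with median centring of the arrays in place of loess, and without replicate 3 the value was 0.14 with an adjusted p of 0.089.

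Tissue markers also differed on these arrays. All 5 shoot and 6 root marker genes were well above background in every channel. For comparison, 16.6% of all genes passed as higher and 13.1% as lower. Root markers were higher for 4 of 6 and lower for 1, and their summed signal was 54900 to 63100 units in mutant channels, against 36900 to 55100 units in wild-type channels, with the mutant higher on all 4 arrays. Shoot markers were lower for 3 of 5 in the fit, but their summed signal turned with the dye. It was 621000 and 636000 units in mutant channels of replicates 1 and 3, against 1010000 and 943000 units in wild-type channels, and 873000 and 813000 units in mutant channels of replicates 2 and 4, against 682000 and 696000 units in wild-type channels. The part of these marker differences in the HSFA8 ratio was not tested.

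Dye orientation separated the arrays for most of the 8 genes. The 2 arrays of one orientation did not overlap the 2 of the other for 7 of the 8, HSFA1A being the exception, against 64.5% of all genes with 4 ratios. The mean ratio had opposite signs in the orientations for 6 of the 8, against 45.5% of those genes. The dye effect itself passed an adjusted p of 0.05 for 2 of the 8, HSFA1D and HSFA8, against 18.1% of genes tested. The fit takes up such a difference as a dye effect, with 2 arrays in each orientation. Each orientation also holds its own replicates, so dye and other differences between those replicates cannot be told apart. The dye term takes this spread out of the error. The SE of HSFA8 was 0.033 with the term and 0.061 without it. Over all genes 5747 passed with the term and 1826 without it.

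The ratios of the 8 also lay inside the bulk of the genes on every array. All 8 fell between the 5th and 95th percentiles of the log2 ratios on each of the 4 arrays. That range ran from -0.256 to 0.274 on replicate 1 and from -0.239 to 0.343 on replicate 2. It ran from -0.298 to 0.359 on replicate 3 and from -0.304 to 0.408 on replicate 4. By definition it holds most genes on each array, and the share of all genes inside it on all 4 was not computed. The highest single value was the 0.31 of HSFA8 on replicate 3 and the lowest the -0.20 of HSFA1D on replicate 4. For the 7 genes that did not pass, the 95% intervals of the main fit together spanned 0.915-fold to 1.12-fold. The span holds for that processing only. Its upper end is 0.1675 on the log2 scale, and HSFA1E was fitted at 0.1987 in the scanner software's processed signals. In the series values as given, which carry a constant, HSFA1E, HSFA4C and HSFA1A were at 0.2798, 0.1941 and 0.1747. Standard errors of the 8 in the main fit were 0.032 to 0.041 on the log2 scale, against a median of 0.036 over all genes. They depend on the processing, the SE of the dim HSFA1E being 0.034 in that fit and 0.099 in the processed signals.

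**Figure D3:**
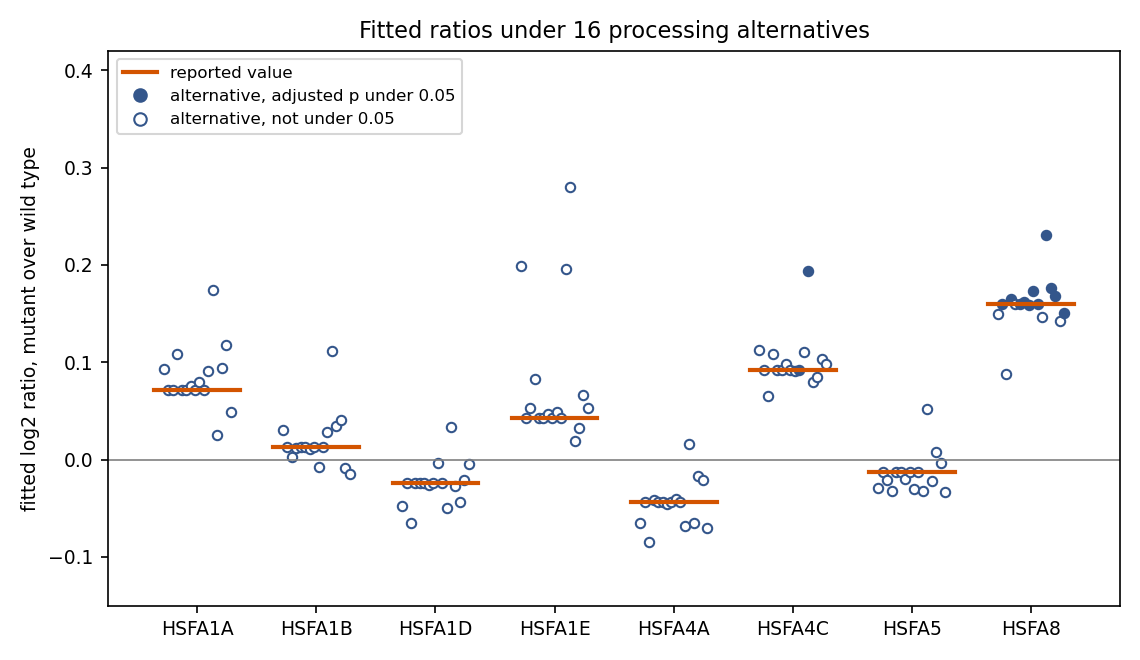
Fitted log2 ratio of mutant over wild type for each gene under the 16 alternatives (circles, filled where the adjusted p was under 0.05), with the reported value as an orange line. HSFA8 was above 0 under all 16 and past the threshold under 11, HSFA4C passed under 2 and the other 6 genes under none.

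For 4 of the 8 genes, the heat shock factor gene with the most similar array ratios was another of the 8. Likeness was the Euclidean distance between the log2 ratios of 4 arrays, taken over the 20 other heat shock factor genes. These 20 include the remaining members, so some such matches arise from their number alone. The values are a description without a test. HSFA1A lay nearest to HSFA1E (0.169) and HSFA1E to HSFA4C (0.147). HSFA1D and HSFA4A, whose ratios turned with the dye in the same way, were 0.174 apart, with HSFB4 nearer to HSFA1D at 0.154. HSFA1B was nearest to HSFB3 (0.117), HSFA5 to HSFB2A (0.125), and HSFA8 to HSFA7A, at a larger distance of 0.264. Median distances to the 20 genes were 0.354 to 0.514.

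Of the other 13 heat shock factor genes, 2 were higher, 3 were lower, the mutated pair included, and 8 did not pass. That is 38.5% called, against 29.8% over all genes, but the 38.5% counts the mutated pair, whose calls follow from the genotype. It therefore shows no excess among the other factor genes. The median log2 ratio of the 13 was 0.0013. HSFA7B and HSFA6B, both heat- or stress-induced class A factors, were higher, by a log2 ratio of 0.56 ± 0.03 for HSFA7B (limma adjusted p = 7.7e-05) and 0.48 ± 0.06 for HSFA6B (limma adjusted p = 0.0017). The HSFA6B ratio depended on the signals used, being 0.69 with no background correction, 1.16 with the scanner software's processed signals, and 1.16 and 1.24 with the series values after and before centring. Besides the mutated HSFB1 and HSFB2B, the lower gene was HSFA2, named after its values were seen, at -0.16 ± 0.05 (limma adjusted p = 0.038), a call that held under 9 of the 16 alternatives, with values from -0.32 to -0.02.

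Partners known to act on HSFA1 protein include HSP90 and cytosolic HSP70 chaperones and the heat shock factor binding protein HSBP. Kinases, a phosphatase and a calmodulin complete the list, of which 12 of 13 genes were tested. HSC70-1 was not tested because of outlier-marked spots, and with these kept it had 0.04 (limma adjusted p = 0.66). Of the 12, 5 were lower, none was higher and 7 did not pass, with a median log2 ratio of -0.11, against 0.0006 over all genes. That is 41.7% called, against 29.8% over all genes, of which 13.1% were lower. HSP90.1, the heat-induced cytosolic HSP90, had log2 ratios of -0.91, -1.001 and -0.28 on replicates 1, 3 and 4 and a fitted value of -0.62 ± 0.04 (limma adjusted p = 0.00029, n = 3 arrays, the replicate 2 spot being marked as an outlier). With that spot kept the value was -0.45 ± 0.10 (limma adjusted p = 0.013), which places replicate 2 above 0, opposite to the other arrays. Without the spot, replicate 4 alone stood for the mutant in Cy5. The HSP90.1 call was lost in both forms of the series values. HSP70 (AT3G12580) had -0.44 ± 0.04 (limma adjusted p = 0.00054). Its mean was -0.99 over replicates 1 and 3 but 0.11 over replicates 2 and 4, and it lost its call without the dye term. HSBP, which interacts with heat shock factor trimers and dampens them, stood at 0.04 ± 0.03 (limma adjusted p = 0.37). The count of 5 became 2 without replicate 1 (of 10 genes tested), 2 without replicate 3 (of 10), 3 without replicate 4 (of 11), 3 without the dye term, and 3 and 2 in the centred and uncentred series values.

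Genes downstream of HSFA1 in the heat response contrasted with the factors themselves. All 12 tested of 14 passed, 11 lower and 1 higher, with a median log2 ratio of -0.62. HSP101 and HSP18.2 were bright but not tested, because of outlier-marked spots. With marked spots kept they stood at -0.79 and -0.85 (limma adjusted p = 6.05e-05 and 2.6e-05). Over all genes 29.8% passed, 16.6% as higher and 13.1% as lower. The 4 HSFA1 genes had a median of 0.03 and none passed. HSP70B, a strongly heat-induced HSP70, stood at -1.03 ± 0.04 (limma adjusted p = 2.8e-05) with arrays from -1.16 to -0.81, and the plastid small heat shock protein gene HSP21 at -0.82 ± 0.05 (limma adjusted p = 9.3e-05). The gene that rose was APX2, an ascorbate peroxidase gene, at 0.41 ± 0.04 (limma adjusted p = 0.00040). Not all of these genes were as even across arrays. MBF1C, a heat-induced coactivator gene, had log2 ratios of -0.96, 0.03, -1.21 and -0.03 on replicates 1 to 4, and the small heat shock protein gene HSP17.6A-CI had -0.81, 0.12, -0.98 and 0.24. Without the dye term 10 of the 12 passed. The list was compiled with earlier results of these data known, so its counts are no independent evidence of direction, and no test of the difference between the lists was made.

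Of 7 partners and targets linked to HSFA4A, WRKY30 and CRK13 were too dim for the filter. Of the 5 tested, 2 were higher, 1 was lower and 2 did not pass. That is 60% of a short list, against 29.8% called over all genes, and the median log2 ratio was 0.01. ZAT12, a zinc finger gene of the oxidative stress response, had 0.69 ± 0.06 (limma adjusted p = 0.00027). MPK3 stood at 0.25 ± 0.04 (limma adjusted p = 0.0041), and the other kinase, MPK6, at -0.01 ± 0.03 (limma adjusted p = 0.78). ZAT6, a related zinc finger gene, was lower at -0.27 ± 0.05 (limma adjusted p = 0.0067). Without the dye term 1 of the 5 passed, MPK3 and ZAT6 losing their calls.

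**Figure D4:**
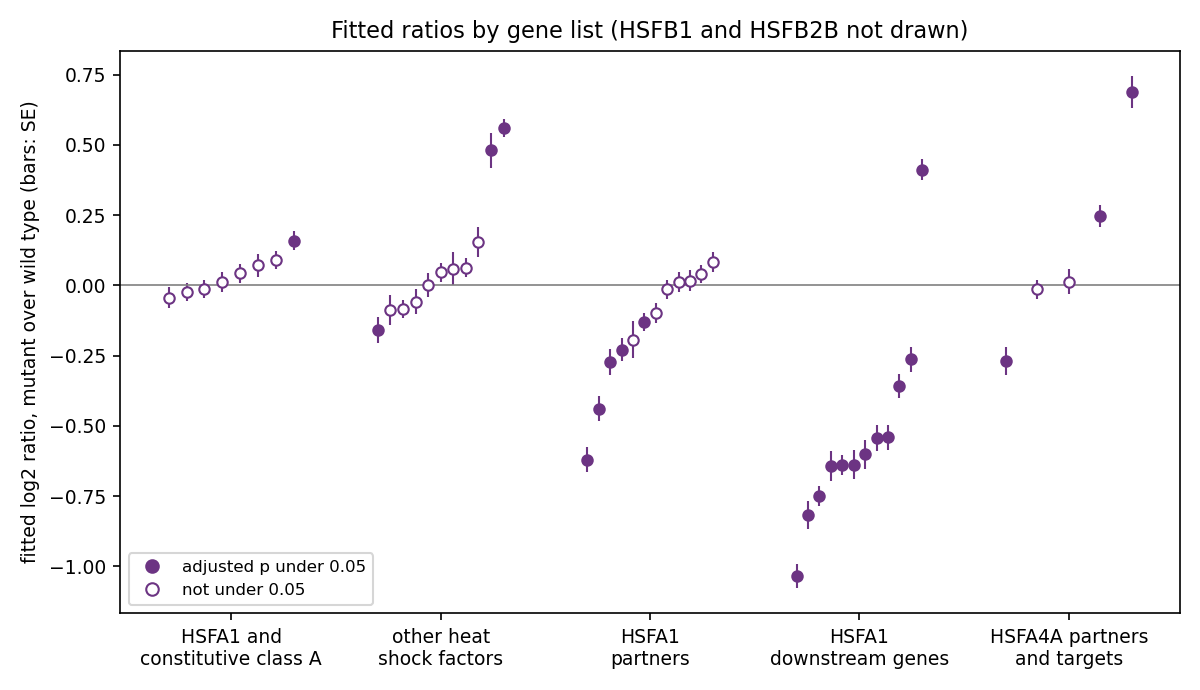
Fitted log2 ratio of mutant over wild type (points, bars are SE) for the 8 class A factor genes and for 4 lists of related genes, filled where the adjusted p was under 0.05, with HSFB1 and HSFB2B left out for scale. The 8 genes lie between -0.04 and 0.16, while 11 of 12 downstream genes lie between -1.03 and -0.26 and 1, APX2, at 0.41.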

How the data were processed

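Expression was measured on 4 two-colour Agilent arrays of hsfb1 hsfb2b double mutant and wild-type seedlings. Agilent Feature Extraction 9.1.3.1 is the scanner software named in the submitters' processing notes. The spot and background values are intensity values deposited without normalization, per the file headers. The processed signals are intensity values after background subtraction and dye normalization by that software, and the deposited log10 ratio is red over green, per the file headers. Set against the scanner files, the deposited series values equal the natural log of the processed mutant signal over the wild-type one (slope 1 in size, sign following the dye, on all 4 arrays) plus a constant of 0.0563, and their medians for replicates 1 to 4 were 0.0458, 0.0813, 0.1066 and -0.0011. Scale, direction and offset are thus settled, and no source used here gives the reason for the offset.

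Median signals were used, since these files carry them. Background was corrected by normexp (offset 50, which draws ratios of dim genes towards 0), and ratios were normalized by loess within arrays, with control spots and spots marked as outliers at weight 0. Outlier-marked spots (190 to 399 of 37685 per array) were left out. Probes well above background in all channels of either genotype with at least 3 ratios were kept, and the brightest probe represented a gene. Of the 19314 genes tested, 19217 matched the RefSeq table of assembly TAIR10.1, which supplied chromosomes.

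Limma 3.58.1 (R 4.3.3) fitted the log2 ratio with a gene-wise dye effect, followed by eBayes, two-sided, with Benjamini-Hochberg adjustment over all genes at 0.05. Each array paired the genotypes of 1 plate. Normalized channel signals come from loess followed by Aquantile scaling. The fit was run on simulated data with independent noise and added effects larger than any fitted ratio of the 8 genes. It therefore did not test calls as small as that of HSFA8. Alternatives changed the background, normalization, values, marks, filter, dye term, prior, scaling, model and replicates. All 4 arrays share 1 slide and 1 scan, per the file headers, which leaves no batch to test. All 8 genes are named whatever they show, and from each list the 2 genes with the largest ratio past the threshold in each direction are named, with MPK6, HSBP, HSFA2, MBF1C and HSP17.6A-CI added after their values were seen. The genes and lists were chosen with earlier results of these data known. Sequences were not used here.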

Additional observations from a re-analysis of the deposited data

Results flagged for a closer look

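One value among the 36 sets of 4 arrays examined stood apart from its group. The wild-type signal of HSFA1A on replicate 1 was 313 units, below the 354, 360 and 363 units of the other wild-type channels, while the mutant signal on that array, 353 units, was close to the 357, 359 and 392 units of the others. Chance alone sets apart about 1 in 20 such groups. Without replicate 1 the HSFA1A log2 ratio was 0.03 (limma adjusted p = 0.74), against 0.07 with all arrays.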

How the results depend on the processing

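The 8 genes were refitted under 16 alternatives. HSFA1A, HSFA1E, HSFA4C and HSFA8 kept their sign under all 16, and HSFA1A, HSFA1B, HSFA1D, HSFA1E, HSFA4A and HSFA5 passed the threshold under none. HSFA1B turned to -0.0071 with scaling between arrays, and with a replicate left out ran from -0.0146 (without replicate 4; -0.0088 without replicate 3) to 0.0407. HSFA5 ran from -0.0332 to 0.0075, the positive value being without replicate 2. In the series values as given, HSFA1D, HSFA4A and HSFA5 turned to 0.0338, 0.0162 and 0.052. These values carry a constant of 0.0812 on the log2 scale by construction, and with each array centred the signs were those of the report. The number of the 8 genes called, 1 in the report, was 0 with processed signals, with median centring, with no dye term and with centred series values, and 2 in the separate-channel fit and in the series values as given. It was 0 to 1 with a replicate left out, replicate 3 being the one that ended the HSFA8 call. HSFA8 stood at 0.15 in the processed signals (adjusted p = 0.055), at 0.15 in the centred series values (0.16) and at 0.16 with no dye term (0.16). Over all genes the count of 5747 fell to 2547 with median centring, to 1826 with no dye term and to 3589 with centred series values, and ran from 2194 (without replicate 3) to 5809 (without replicate 2), with 3268 without replicate 1. The share of calls that were higher, 55.8%, was 45.5% with median centring and 80% in the series values as given. The causes were not tested. Of the genes outside the 8, 13 were refitted (APX2, HSFA2, HSFA6B, HSFA7B, HSFB1, HSFB2B, HSP21, HSP70, HSP70B, HSP90.1, MPK3, ZAT12 and ZAT6), and these kept their sign under each alternative that gave a value. Those refits, and the list counts other than those with marked spots kept or no dye term, were added after seeing the data. Another probe per gene could not be tried, as each of the 8 loci has 1. No paired analysis was possible beyond the pairing within arrays because the series holds 1 group of arrays.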
